A study of Canis lupus familiaris with 26 samples.

Results

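ANGPT1, FGF1, EGLN1 and LEP are 4 genes of angiogenic, hypoxia and leptin signalling, described here in the canine corpus luteum (CL) across the luteal phase and under inhibition of cyclooxygenase 2. They were taken by symbol, as 4 of the 19856 genes counted in each sample, and all 4 were found in all 26 samples: ANGPT1 (ENSCAFG00000000693), FGF1 (ENSCAFG00000031965), EGLN1 (ENSCAFG00000011772) and LEP (ENSCAFG00000001672). Each of the 4 appears on the study's own lists of changed genes, so their choice was not independent of the comparisons below.

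The samples were CLs of 26 bitches, each collected once, 13 control and 13 treated, in 8 groups by day and treatment. Treated dogs received firocoxib, a selective inhibitor of cyclooxygenase 2 (PTGS2), by mouth every day from ovulation until their ovaries were removed 5, 10, 20 or 30 days later, at a dose of 10 mg per kg of body weight. Control dogs were collected on the same days and were given a placebo according to the sample labels. Day 5 had 4 dogs per group and days 10, 20 and 30 had 3. None of the dogs carried a genetic modification, and breed and age were mixed. Each library was RNA of luteal tissue trimmed from the rest of the ovary, so luteal, endothelial, mural and immune cells were measured together. In such bulk tissue, fewer cells of a type and less RNA per cell cannot be told apart. Libraries held between 12831896 and 22658950 reads assigned to genes, with a median of 17909942. Levels are given as CPM, the reads of a gene per 1000000 reads of the library, scaled with edgeR's TMM factors. They serve to compare 1 gene between samples, and not 1 gene with another.

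The CL is a temporary gland that forms from the ovulated follicle and makes progesterone, and it is among the most densely vascularised tissues of the body. Angiopoietin 1, encoded by ANGPT1, is secreted mainly by perivascular cells and activates the endothelial receptor TIE2, which keeps vessels stable, whereas angiopoietin 2 (ANGPT2) can oppose it. FGF1 encodes acidic fibroblast growth factor, a ligand of the fibroblast growth factor receptors that acts on endothelial and many other cells. EGLN1 encodes the prolyl hydroxylase PHD2, the main oxygen sensor that marks the alpha subunits of the hypoxia-inducible factors (HIF1A, EPAS1) for breakdown, and it is itself a target of these factors. LEP encodes leptin, a hormone best known from fat cells, which signals through the receptor LEPR and induces its own feedback inhibitor SOCS3.

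ANGPT1 had the widest range of the 4 genes and the largest share of its variance inside the groups. Over the 26 samples its level ran from 0.753 to 51.4 CPM, a 68.3-fold range resting on 14 to 926 reads, with 68.6% of the variance of its log2 CPM lying within the 8 groups. On day 5, ANGPT1 had 16.3, 51.4, 16 and 35.3 CPM in the controls and 1.85, 19.1, 10.6 and 42.8 CPM in the treated dogs. On day 10 it had 20.6, 7.30 and 11.6 CPM in the controls and 2.57, 25.8 and 13.8 CPM in the treated dogs. On these days the treated groups held both very low and high samples, and the treated values overlapped the controls. On day 20, ANGPT1 had 25.5, 36.2 and 20.9 CPM in the controls and 0.753, 11.6 and 10.8 CPM in the treated dogs. On day 30 it had 3.70, 15.4 and 14.9 CPM in the controls and 12.8, 7.91 and 17.3 CPM in the treated dogs. Day 20 was the collection at which all treated samples lay under all controls, and the lowest value of the whole series, 0.753 CPM, was in that treated group.

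FGF1 tended to have its lower values early. On day 5, FGF1 had 8.25, 3.94, 9.01 and 7.29 CPM in the controls and 2.57, 4.52, 18.6 and 2.28 CPM in the treated dogs. On day 10 it had 16.7, 21.9 and 6.59 CPM in the controls and 3.12, 15.8 and 7.17 CPM in the treated dogs. Most of the day 5 samples were under 10 CPM, with 1 treated sample standing well above the other 3. On day 20, FGF1 had 13.7, 17 and 13.7 CPM in the controls and 7.80, 32.3 and 17 CPM in the treated dogs. On day 30 it had 23.6, 11 and 24 CPM in the controls and 14.8, 14.8 and 17.3 CPM in the treated dogs. Treated and control values overlapped on all 4 days, and the day 20 treated group held the highest sample of the series. Within groups lay 51.9% of the variance of FGF1.

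EGLN1 was the steadiest of the 4, with a 2.77-fold range from 42.5 to 118 CPM. On day 5, EGLN1 had 91.2, 84.1, 74.4 and 67.8 CPM in the controls and 42.5, 78.0, 70.7 and 72.8 CPM in the treated dogs. On day 10 it had 74.9, 80.3 and 72.4 CPM in the controls and 56.1, 87.1 and 88.7 CPM in the treated dogs. The controls of both days stayed within a narrow band, and each treated group held 1 low sample. On day 20, EGLN1 had 103, 97.0 and 90.1 CPM in the controls and 44.7, 99.0 and 90.9 CPM in the treated dogs. On day 30 it had 94.2, 107 and 117 CPM in the controls and 77.1, 106 and 118 CPM in the treated dogs. On each of the 4 days the sample with the lowest EGLN1 was a treated dog. The remaining treated values mixed with the controls on days 5, 20 and 30. On day 10 they lay above all controls, with 87.1 and 88.7 CPM.

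LEP was low in most CLs of day 5. On day 5, LEP had 2.56, 3.78, 8.23 and 6.86 CPM in the controls and 14.7, 4.01, 11.5 and 1.37 CPM in the treated dogs. On day 10 it had 19.1, 4.15 and 14.7 CPM in the controls and 30.2, 12.2 and 16.4 CPM in the treated dogs. Treated and control values overlapped on these days. The treated group of day 10 held the highest sample of the series, 30.2 CPM, closely followed by a control of day 20 with 30.0 CPM. With RLE factors in place of TMM their order turned, with 29.6 and 29.9 CPM. On day 20, LEP had 23.0, 21.0 and 30.0 CPM in the controls and 18.6, 3.28 and 13 CPM in the treated dogs. On day 30 it had 23.0, 17.8 and 16.5 CPM in the controls and 23.3, 21.2 and 13.4 CPM in the treated dogs. As with ANGPT1, all treated values of day 20 lay under the controls, while those of day 30 overlapped. LEP had the smallest share of variance within groups, 47.0%.

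**Figure D1:**
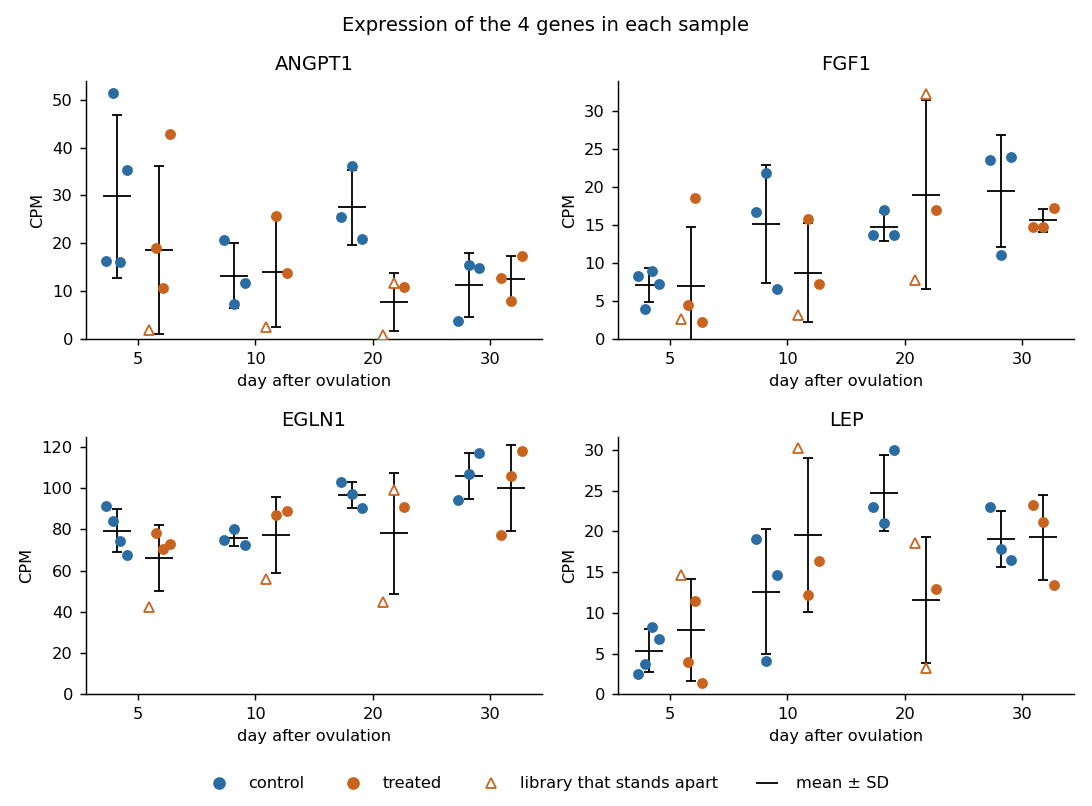
Levels of ANGPT1, FGF1, EGLN1 and LEP in CPM (y axis) in control (blue) and treated dogs (orange) on each day after ovulation (x axis), where points are single dogs, open triangles the 4 libraries described further on that stood apart, and bars the group mean ± SD, cut at 0 for FGF1 in the treated dogs of day 5. On day 20 the treated points of ANGPT1 (0.753 to 11.6 CPM) and LEP (3.28 to 18.6 CPM) lie under all control points.

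Ordered by group mean, ANGPT1 was highest in the controls of day 5 with 29.8 ± 17.1 CPM (SD, n = 4) and lowest in the treated dogs of day 20 with 7.72 ± 6.04 CPM (SD, n = 3). FGF1 was highest in the controls of day 30 with 19.5 ± 7.38 CPM (SD, n = 3) and lowest in the treated dogs of day 5 with 6.99 ± 7.80 CPM (SD, n = 4). By mean, FGF1 was thus highest late and ANGPT1 on day 5, each ahead of the next group by less than the SD. With RLE factors in place of TMM, FGF1 was highest in the treated dogs of day 20, with 19.4 CPM against 19 CPM in the controls of day 30. EGLN1 ran from 106 ± 11.2 CPM in the controls of day 30 (SD, n = 3) to 66 ± 16 CPM in the treated dogs of day 5 (SD, n = 4). LEP ran from 24.7 ± 4.70 CPM in the controls of day 20 (SD, n = 3) to 5.36 ± 2.64 CPM in the controls of day 5 (SD, n = 4). Of the 28 pairs of neighbours in these 4 orders, 1 differed by more than the larger SD of the pair, namely EGLN1 in the controls of day 20 (96.7 ± 6.45 CPM) and of day 5 (79.4 ± 10.3 CPM). The other 27 pairs did not differ beyond their spread. These orders include 4 libraries, described next, without which the mean of ANGPT1 in the treated dogs of day 5 was 24.2 instead of 18.6 CPM, and that of LEP in the treated dogs of day 10 was 14.3 instead of 19.6 CPM. Without them ANGPT1 was still lowest in the treated group of day 20 (10.8 CPM, 1 dog), EGLN1 in the treated dogs of day 5 (73.8 CPM) and LEP in the controls of day 5, whereas FGF1 was lowest in the controls of day 5 (7.12 CPM).

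Before the comparisons, 4 libraries must be named, because they stood apart from the rest. Over all genes that passed the filter, with the 4 genes themselves left out, the mean correlation of a library with the other 25 was 0.802 for day 5 treated replicate 1, 0.838 for day 20 treated replicate 2, 0.851 for day 20 treated replicate 3 and 0.857 for day 10 treated replicate 1. The other 22 libraries had means of 0.893 to 0.935. The limit of 0.88 that separates them was set after the data had been seen, and all 4 were treated dogs. The 3 samples with the lowest ANGPT1 and the 3 with the lowest EGLN1 were the same 3 of these libraries, namely replicate 1 of days 5 and 10 and replicate 2 of day 20. Across the 26 samples, the mean correlation of a library with the others had an r of 0.64 with ANGPT1, 0.57 with EGLN1, 0.34 with FGF1 and -0.05 with LEP, as a description of these libraries. Whether tissue composition or RNA quality set these libraries apart was not tested. The main values they bear on in the comparisons are given with and without them.

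**Figure D2:**
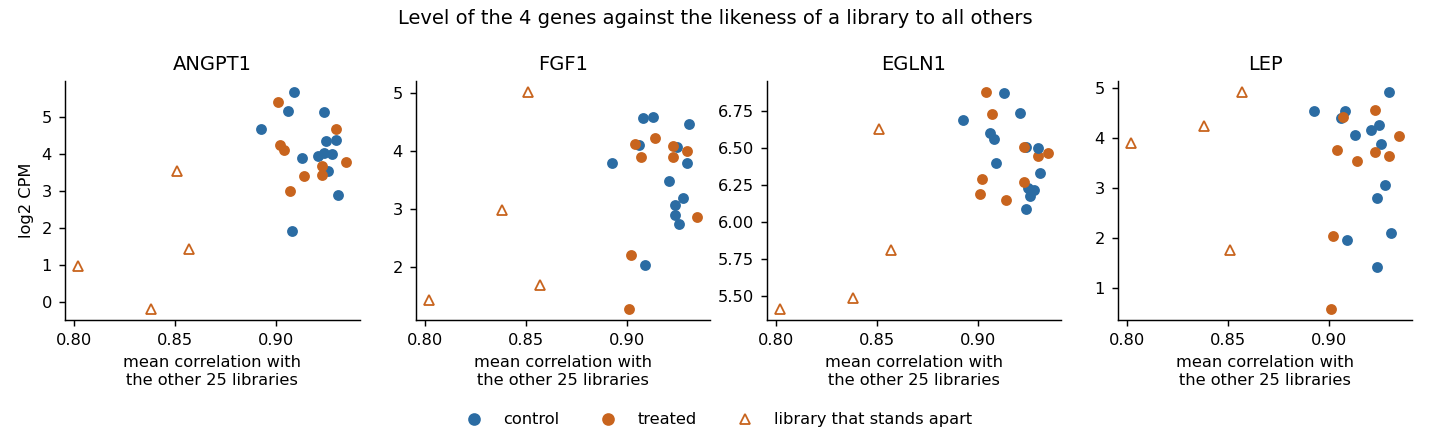
Log2 CPM of each of the 4 genes (y axis) against the mean correlation of a library with the other 25 libraries (x axis), for 13 control (blue) and 13 treated dogs (orange), with open triangles for the 4 libraries under 0.88. The triangles include the lowest ANGPT1 and EGLN1 values, 0.753 and 42.5 CPM on the linear scale.

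Markers of the cell types of the CL were checked in every library. Of 5 luteal cell markers with an identifier, none was at 0 in any library and FDX1, an electron carrier of steroid synthesis, was the most abundant. Their sum was 1270 to 2830 CPM in the 22 libraries and 362 to 2540 CPM in the 4, with the lowest value in day 20 treated replicate 3. Of 3 adipocyte markers, PPARG was the most abundant, none was at 0, and their sum was 9.25 to 30.7 CPM in the 22 libraries and 70.0 CPM in the same day 20 treated replicate 3. Oocyte markers, 8 genes led by KIT, were partly at 0, with 3, 4 and 5 of them at 0 in the 3 controls of day 20. Their sums in these controls were still 83.9, 73.7 and 59.0 CPM, so the sum does not stand for each of the 8 genes.

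The time contrast of the study set days 20 and 30, the mature CL, against days 5 and 10, the early CL, in control dogs. LEP and EGLN1 were called higher in the mature CL, though the call of EGLN1 did not hold under every alternative. ANGPT1 did not pass the test, and FGF1 was higher in the mature CL without passing. By quantitative PCR on a larger set of samples, the paper found no significant change of EGLN1 with time. FGF1 rose there from day 5 to day 30. Among all 13503 genes tested, 2774 (20.5%) passed a P under 0.01 and a false discovery rate (FDR) under 0.1 in edgeR's quasi-likelihood test, with 10.1% of the genes called higher and 10.4% lower, while 37.1% had an unadjusted P under 0.05. Against that background, 2 of the 4 genes were called, and both were higher.

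LEP had 2.56, 6.86 and 19.1 CPM as the lowest, median and highest of the 7 early controls and 16.5, 22.0 and 30.0 CPM in the 6 mature controls. Most mature CLs were above all early ones, and 2 of the 6 lay under the highest early sample. The group means were 8.47 ± 6.18 CPM (SD, n = 7) and 21.9 ± 4.79 CPM (SD, n = 6). The log2 fold change was 1.38 (SE 0.39, 95% confidence interval 0.54 to 2.22), with an edgeR FDR of 0.024 and a two-sided exact permutation p of 0.00583. Leaving out each of the 13 controls in turn kept the call of LEP each time, with log2 fold changes from 1.21 to 1.70.

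EGLN1 had 67.8, 74.9 and 91.2 CPM as the lowest, median and highest of the early controls and 90.1, 100 and 117 CPM in the mature controls. The groups overlapped slightly, by the highest early and the lowest mature sample. The means were 77.9 ± 7.89 CPM (SD, n = 7) and 101 ± 9.61 CPM (SD, n = 6), and the log2 fold change was 0.37 (SE 0.11, 95% confidence interval 0.13 to 0.60) with an edgeR FDR of 0.0298 and a two-sided exact permutation p of 0.00175. The call of EGLN1 was lost when all 26 samples shared an estimate of the spread (log2 fold change 0.38, edgeR FDR 0.221). It was also lost without day 10 control replicate 4, with an edgeR P of 0.0132, and without replicate 3 or 4 of the day 30 controls, with an edgeR P of 0.0122 each. With the animal number as a block the call of EGLN1 was lost as well, although these numbers did not pair the samples.

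FGF1 had 3.94, 8.25 and 21.9 CPM as the lowest, median and highest of the early controls and 11, 15.3 and 24 CPM in the mature controls. The mature values were on the higher side of a broad overlap. The log2 fold change of 0.70 (SE 0.34, 95% confidence interval -0.03 to 1.43) did not pass, with an edgeR FDR of 0.15. Without day 10 control replicate 3, whose FGF1 was the highest among the early controls, it was 0.99 and passed (edgeR FDR 0.038), as did 18.7% of all genes. ANGPT1 had 22.6 ± 15.5 CPM in the early (SD, n = 7) and 19.4 ± 11 CPM in the mature controls (SD, n = 6). Its log2 fold change was -0.24 (SE 0.48, 95% confidence interval -1.27 to 0.79, edgeR FDR 0.738), an interval that leaves room for a change of more than 1 on the log2 scale in the downward direction.

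**Figure D3:**
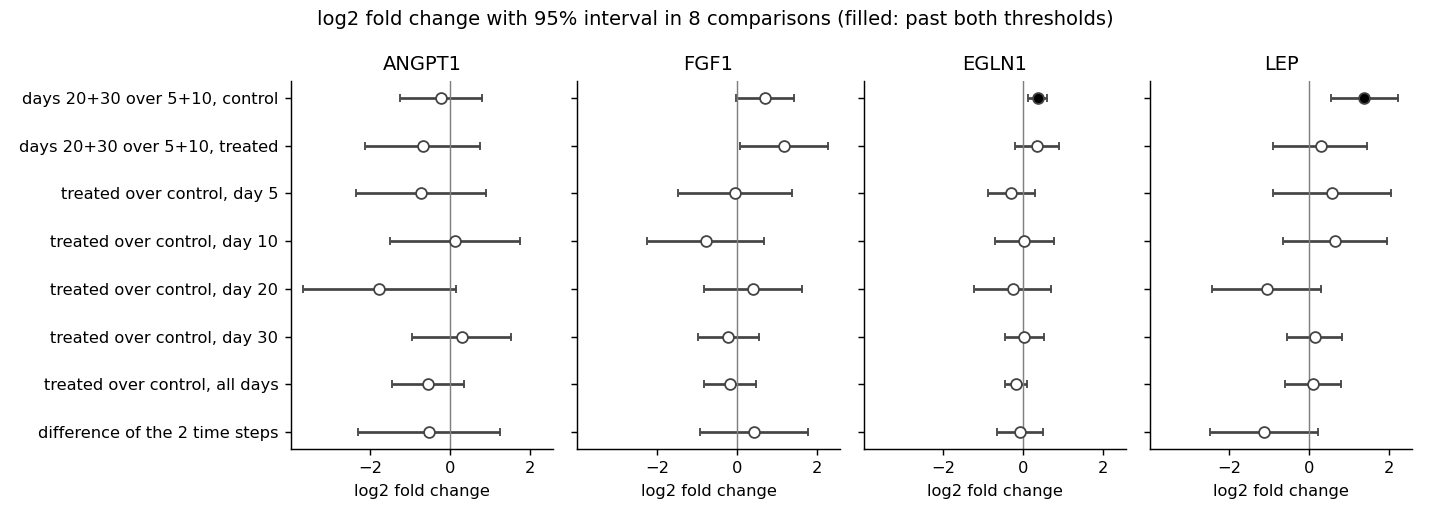
Log2 fold changes of ANGPT1, FGF1, EGLN1 and LEP (x axis) in 8 comparisons (y axis), from edgeR's quasi-likelihood fit, with 95% confidence intervals as bars and filled points for calls. The filled points are LEP (interval 0.54 to 2.22) and EGLN1 (0.13 to 0.60) in the control time contrast.

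The other genes of these pathways were taken from 6 lists, with 48 genes that had an identifier. Identifiers were known only for genes on the study's lists of changed genes, which were chosen on these samples, so the counts below are not independent evidence of a direction. In the vascular endothelial growth factor family, the 4 receptors and co-receptors that had an identifier rose with maturation, and VEGFD, the 1 ligand that had one, fell. The list had a median log2 fold change of 0.893 against 0.019 over all genes tested. FLT1, a receptor of this family, had 42.0 ± 19.0 CPM in the early (SD, n = 7) and 112 ± 39.5 CPM in the mature controls (SD, n = 6), and rose by 1.40 on the log2 scale (edgeR FDR 0.00491). KDR, the main signalling receptor of endothelial cells, rose from 300 ± 101 to 562 ± 167 CPM, or by 0.89 on the log2 scale. The lymphatic endothelial receptor FLT4 rose by 1.03 and the co-receptor NRP1 by 0.64, whereas VEGFD fell from 8.48 ± 4.55 to 3.06 ± 1.45 CPM (log2 fold change -1.48). The fit of all 26 samples called 12.4% of all genes in this contrast (703 higher, 1051 lower). In that fit, 1 of these 5 genes was still called higher and none lower.

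Endothelial markers moved in the same contrast. Of 6 endothelial markers, 3 rose, KDR among them, and none fell (1 and none in the fit of all 26 samples), and their sum was 1050 ± 310 CPM in the early (SD, n = 7) and 1540 ± 404 CPM in the mature controls (SD, n = 6), with KDR the most abundant. Leukocyte markers went the other way, since 5 of 5 fell (4 in the fit of all 26 samples), and their sum was 104 ± 29.3 CPM early and 47.7 ± 10.3 CPM late, with LCP1 the most abundant. None of these 11 markers was at 0 in any library. The sum of the 9 mural cell markers, led by MYL9, was 806 ± 145 and 791 ± 131 CPM, with 1 marker called higher and 3 lower. Of 5 luteal markers 1 was called higher and 1 lower, of 8 oocyte markers 1 higher and 2 lower, and of 3 adipocyte markers 1 higher. The fit of all 26 samples called 12.4% of all genes. There the mural markers had none higher and 2 lower, the luteal none and 1, and the oocyte 1 and 3. No adipocyte marker was called in that fit. The part of cell composition in the changes of LEP, EGLN1 and the growth factor receptors was not tested.

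Among 9 tested genes of the angiopoietin and TIE list, ANGPT1 included, 1 rose and 2 fell, and the median log2 fold change was -0.24. DESeq2, which called 26% of all genes, had 1 higher and 4 lower. The fit of all 26 samples, with 10 genes of the list tested and 12.4% of all genes called, had 1 and 2. ANGPT4, another ligand of TIE2, fell from 21.0 ± 5.60 to 6.96 ± 2.83 CPM (log2 fold change -1.60). ANGPTL2, a secreted angiopoietin-like protein, also fell, with a log2 fold change of -0.85. PTPRB, the endothelial phosphatase that acts on TIE2, rose from 97.9 ± 31.5 to 165 ± 37.5 CPM (log2 fold change 0.74). ANGPT2 had 20.2 ± 7.32 CPM in the early and 26 ± 6.45 CPM in the mature controls and did not pass, with a log2 fold change of 0.36 and an edgeR FDR of 0.302.

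Of 6 genes of the fibroblast growth factor list, 1 rose and 2 fell, against 1 and 1 in the fit of all 26 samples (12.4% of all genes called). FGF7, a factor of stromal origin that acts on epithelial cells, fell from 7.11 ± 5.63 to 1.44 ± 1.06 CPM, a log2 fold change of -2.32, and its close relative FGF10 fell with a log2 fold change of -1.28. FGFBP1, a secreted protein that releases fibroblast growth factors from the matrix, rose with a log2 fold change of 2.59. The median over the list was -0.502, in the direction opposite to the value of FGF1 itself.

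EGLN1 was the only 1 of 4 genes of the oxygen-sensing list that was called in the control time contrast. HIF1A, the alpha subunit that PHD2 hydroxylates, had 1530 ± 438 CPM in the early (SD, n = 7) and 1130 ± 375 CPM in the mature controls (SD, n = 6), with a log2 fold change of -0.45 and an edgeR FDR of 0.182. For EPAS1, the alpha subunit prominent in endothelium, it was 0.34 (edgeR FDR 0.362). Of 17 known targets of the hypoxia-inducible factors, 3 rose and 8 fell, with a median of -0.706. Among those that fell were TPI1, an enzyme of glycolysis, going from 2150 ± 670 to 859 ± 195 CPM (log2 fold change -1.33), PFKP, a phosphofructokinase, with -1.52 and PFKFB3, which makes an activator of glycolysis, with -1.23. PFKFB4, a relative of PFKFB3, rose from 13.2 ± 5.00 to 33.9 ± 8.06 CPM (log2 fold change 1.36), and the hexokinase HK1 rose with 0.77. EGLN1 thus rose where most of the called targets fell. In the fit of all 26 samples, where 12.4% of all genes were called, EGLN1 was not called. There 2 targets were called higher and 4 lower.

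Of 7 tested genes of the leptin list, LEP included, 3 rose and 3 fell. In the fit of all 26 samples (12.4% of all genes called) 3 were called higher and 1, SOCS3, lower. SOCS3, the feedback inhibitor of leptin and cytokine receptors, fell from 16.5 ± 8.51 to 3.01 ± 2.43 CPM, a log2 fold change of -2.45 with an edgeR FDR of 0.00883. LEPROTL1, a regulator of receptor traffic related to a leptin receptor transcript, rose from 44.1 ± 8.43 to 78.7 ± 15.5 CPM (log2 fold change 0.83). PTPN1, a phosphatase that dampens leptin signalling, rose with 0.55, and IRS2, an adaptor shared with the insulin receptor, fell with -0.73. LEPR itself was hardly measured, with at most 1.08 CPM in any control of the 2 stages. LEP, then, rose while SOCS3 fell in the same 13 dogs, and whether these changes were linked was not tested.

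**Figure D4:**
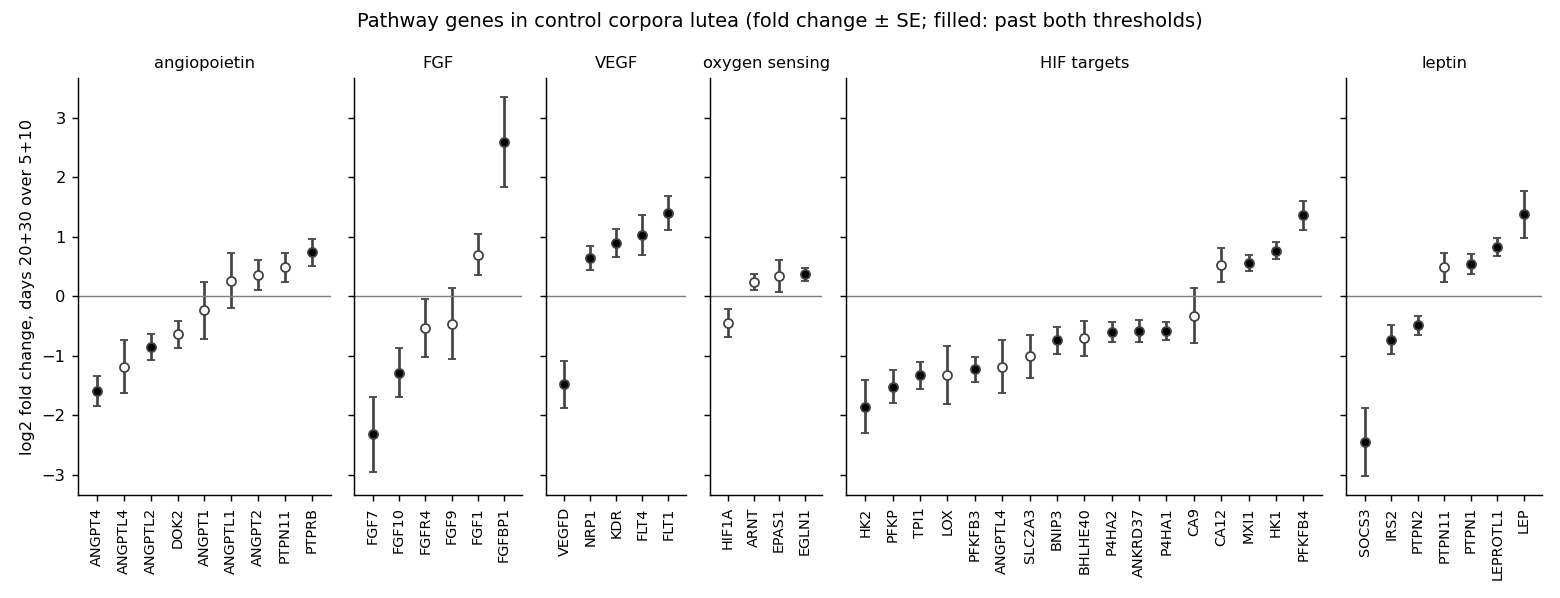
Log2 fold changes of days 20 and 30 over days 5 and 10 in control dogs (y axis) for the genes of the 6 pathway lists (x axis, 1 panel per list), from edgeR's quasi-likelihood fit, with SE as bars and filled points for called genes. In the panel of the vascular endothelial growth factor list 4 of 5 genes lie above 0, and 8 of 17 targets of the hypoxia-inducible factors are called lower.

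In treated dogs the same contrast called 639 of 13747 genes (4.65%), with 1.54% higher and 3.11% lower, and none of the 4 genes was among them. DESeq2 called none of the 4 either, and 1 of them, FGF1, had an unadjusted edgeR P under 0.05, as did 19.6% of all genes. LEP had 12.9 ± 9.40 CPM in the early (SD, n = 7) and 15.5 ± 7.25 CPM in the mature treated dogs (SD, n = 6). Its log2 fold change was 0.28 (SE 0.55, 95% confidence interval -0.90 to 1.45, edgeR FDR 0.786), next to 1.38 in the controls. EGLN1 had 70.8 ± 16.6 and 89.2 ± 25.8 CPM, and its log2 fold change of 0.35 (edgeR FDR 0.45) was close to that of the controls with more than double the standard error, 0.26 against 0.11. FGF1 had 7.72 ± 6.73 and 17.3 ± 8.09 CPM, with a log2 fold change of 1.19 (95% confidence interval 0.09 to 2.28) and an edgeR FDR of 0.22, an unadjusted P of 0.0357. ANGPT1 had 16.6 ± 14.4 and 10.2 ± 5.54 CPM (log2 fold change -0.69, edgeR FDR 0.574). Without the 4 libraries the log2 fold changes were 0.97 for LEP, 0.32 for EGLN1, 0.74 for FGF1 and -0.86 for ANGPT1, and none was called.

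Whether the change with maturation differed between treated and control dogs was tested as an interaction over all 26 samples. LEP had the largest value of the 4, with -1.13 (SE 0.65, 95% confidence interval -2.48 to 0.22, edgeR FDR 0.729), so a different rise of LEP in treated dogs was not shown. ANGPT1 had -0.55, FGF1 0.43 and EGLN1 -0.07. Without the 4 libraries the values were -0.61 for LEP (edgeR FDR 0.898), -0.75 for ANGPT1, -0.0176 for FGF1 and -0.15 for EGLN1. No gene of the 14171 tested was called by edgeR (0%), although 7.91% had an unadjusted P under 0.05 and DESeq2 called 192. Among the pathway genes, those with the smallest unadjusted P included SLC2A3, a glucose transporter, with 2.18 (edgeR FDR 0.247), and SOCS3 with 2.22, given as values since neither passed in edgeR. DESeq2 called SLC2A3 (2.21), 1 of its 192 calls.

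Of the pathway genes in the treated dogs, ANGPT4 fell with maturation (log2 fold change -1.67, edgeR FDR 0.0948), as it did in controls. Of the targets of the hypoxia-inducible factors, 4 fell and none rose, namely PFKP (-2.13), TPI1 (-1.90), PFKFB3 (-1.28) and P4HA2 (-1.16), a subunit of collagen prolyl hydroxylase. DESeq2 called 4 lower and 2 higher, at 11.8% of all genes called. No gene of the vascular endothelial growth factor, oxygen-sensing or leptin lists was called. FLT1 had 39.7 ± 13.7 and 51.3 ± 19.5 CPM (log2 fold change 0.39), KDR had a log2 fold change of -0.12 and SOCS3 of -0.10. Of 5 leukocyte markers 3 fell, with a sum of 152 ± 88.1 CPM in the early (SD, n = 7) and 56.7 ± 14.5 CPM in the mature treated dogs (SD, n = 6). The mural sum was 1900 ± 1370 and 1040 ± 474 CPM, with 1 of 9 markers called lower and 5 at an unadjusted P under 0.05. The luteal sum was 2170 ± 521 and 1280 ± 550 CPM, with 1 of 5 markers called higher and 1 lower, and the endothelial sum was 1410 ± 497 and 1000 ± 426 CPM with none called. All 8 oocyte markers had higher values in the mature treated dogs, with sums of 71.2 ± 34.3 and 191 ± 88 CPM and none called by edgeR, and the adipocyte sum was 15.6 ± 5.07 and 25.4 ± 23.2 CPM with none called. DESeq2 called 1 endothelial marker higher and 1 lower, 5 mural and 5 leukocyte markers lower and 3 oocyte markers higher. The fit of all 26 samples called 12% of all genes. Among them were 1 endothelial marker higher and 1 lower, and 4 mural and 5 leukocyte markers lower. The luteal counts stayed as given in both. The part of these markers in the values of the 4 genes and of their pathways was not tested. Without the 4 libraries, where 11% of all genes were called, FGFBP1 was also called higher with 1.85, and the targets of the hypoxia-inducible factors had 1 called higher and 5 lower. Of the markers, all 5 leukocyte and 3 mural markers were then called lower and 1 endothelial marker higher. The luteal, oocyte and adipocyte counts were those of the edgeR fit of all treated dogs.

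Treated and control dogs were then compared on each day. None of the 4 genes passed on any day. The call rule was passed by 0% of genes on days 5, 10 and 30 and by 0.102% on day 20, where 14 of 13726 genes were called, all higher in treated dogs. None of the 4 had an unadjusted edgeR P under 0.05 on any day. Among all genes such a P was reached by 11.8% (1609 genes) in the day 5 comparison, 0.902% (121) in that of day 10, 17% (2338) in that of day 20 and 8.14% (1074) in that of day 30. With 1 sample left out these shares ran from 4.81% to 17.5%, 0.69% to 4.85%, 8.52% to 21.8% and 4.17% to 19%, in that order. DESeq2 called 100, 0, 1479 and 116 genes, none of the 4 among them.

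Day 20 was the day with the largest differences of ANGPT1 and LEP. For ANGPT1, whose 3 treated values all lay under the 3 controls, the log2 fold change was -1.78 (SE 0.83, 95% confidence interval -3.69 to 0.14), with an edgeR P of 0.0647 and an FDR of 0.32. The exact permutation p was 0.1, the smallest that 3 dogs against 3 can give. For LEP, which was separated in the same way, the log2 fold change was -1.06 (SE 0.59, 95% confidence interval -2.43 to 0.30, edgeR FDR 0.38). FGF1 had 0.41 and EGLN1 -0.26, with overlapping groups. These values lie on a slightly shifted scale, since the genes tested on day 20 had a median of 0.11.

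Both unusual libraries of day 20 bore on these values. Without day 20 treated replicate 2, the sample with the lowest ANGPT1, the log2 fold change of ANGPT1 was -1.27 (SE 0.36) and passed the call rule (edgeR FDR 0.0921), as did 7.4% of all genes in that fit (1016, against 14 with all 6 dogs), that of LEP was -1.58 (edgeR FDR 0.14), that of EGLN1 was 0.0071 and that of FGF1 was 0.77. Without day 20 treated replicate 3, ANGPT1 had -2.19, LEP -0.63 and FGF1 -0.22. Without both, 1 treated dog was left, assumed to vary like the controls, and ANGPT1 had -1.29 (edgeR FDR 0.276) and LEP -0.87. ANGPT1 and LEP were lower in treated dogs under each of these omissions, while the sign of FGF1 turned with 1 library.

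In edgeR's fit of the day 20 samples, no gene of the pathway lists was called. DESeq2, which called 10.8% of all genes on that day, called 1 gene higher and 1 lower in the angiopoietin list, 2 higher in the fibroblast growth factor list, 3 higher among the targets of the hypoxia-inducible factors and 1 higher and 1 lower in the leptin list. The fit of all 26 samples, which called 11% of all genes, had 1 higher and 2 lower, 1 higher, 2 higher, and 1 higher and 2 lower in the same order. SOCS3, BHLHE40 and SLC2A3 were called higher in both. Some lists share genes, so 1 gene can enter more than 1 of these counts. PTPN11 is on the angiopoietin and leptin lists, and ANGPTL4 on the angiopoietin and target lists. PTPN11 had 154 ± 43 CPM in the controls and 47.7 ± 30.6 CPM in the treated dogs of day 20 (SD, n = 3 each). In the leptin list the smallest P belonged to SOCS3, which had 0.541, 2.25 and 5.00 CPM in the controls and 9.47, 27.6 and 39.3 CPM in the treated dogs. All treated values of SOCS3 were above the controls, with a log2 fold change of 3.32 (SE 0.86, edgeR FDR 0.159). Of the targets of the hypoxia-inducible factors, the transcription factor BHLHE40 had 2.68 (FDR 0.14) and SLC2A3 had 2.45 (FDR 0.15). With both unusual libraries left out, and thus 1 treated dog against 3 controls, edgeR called 1.96% of all genes, among them SOCS3 (3.95, FDR 0.0153), SLC2A3 (2.75) and BHLHE40 (2.76) higher and CA12, a carbonic anhydrase, lower (-1.66). FLT1 had 90.5 ± 10.3 CPM in the controls and 51.0 ± 25.3 CPM in the treated dogs (SD, n = 3 each), and ANGPT2 had 28.1 ± 4.04 and 17.9 ± 9.73 CPM, with a log2 fold change of -0.61 and an edgeR FDR of 0.546.

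Cell type markers differed on day 20 as well. Of 8 oocyte markers, 5 were called higher in treated dogs, and their sum was 83.9, 73.7 and 59.0 CPM in the controls and 184, 292 and 264 CPM in the treated dogs. The luteal marker sum was 2240 ± 360 CPM in the controls and 891 ± 478 CPM in the treated dogs (SD, n = 3 each), and the adipocyte sum was 12.7 ± 2.42 and 39.7 ± 27.0 CPM. None of the luteal or adipocyte markers was called by edgeR on the day 20 samples, whereas DESeq2 and the fit of all 26 samples each called 2 of 5 luteal markers lower and 1 of 3 adipocyte markers higher. All 5 leukocyte markers had higher values in treated dogs, with a median of 1.06 on the log2 scale. None was called, 1 had an unadjusted edgeR P under 0.05, and their sum was 50.8 ± 10.4 and 68.8 ± 9.21 CPM. Of 9 mural markers, 8 had higher values in treated dogs and 6 had an unadjusted P under 0.05. Their median on the log2 scale was 1.29, and edgeR called none. DESeq2 called 4 of them higher and 1 lower. The mural sum was 636, 708 and 906 CPM in the controls and 1970, 762 and 1010 CPM in the treated dogs, so that the groups overlapped, and the highest sum was in day 20 treated replicate 2, the sample with the lowest ANGPT1. The treated sample with the highest adipocyte sum, day 20 treated replicate 3, was the 1 with the lowest LEP of that day, 3.28 CPM. That sum was led by PPARG, which the paper describes as expressed in the CL itself and raised by treatment on day 20. It is therefore no specific measure of fat cells. The part of all these markers in the differences of ANGPT1, LEP and SOCS3 was not tested.

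On day 5 the log2 fold changes were -0.74 for ANGPT1 (edgeR FDR 0.574), -0.03 for FGF1, -0.29 for EGLN1 and 0.56 for LEP. On day 10 they were 0.11, -0.78, 0.03 and 0.64 in the same order, each with an FDR of 1. None of these differences passed the test. Without day 5 treated replicate 1 the day 5 values were -0.31 for ANGPT1, 0.23 for FGF1, -0.12 for EGLN1 and 0.06 for LEP. Without day 5 treated replicate 4 the value of FGF1 was far lower, as given under the flagged results. Without day 10 treated replicate 1 the day 10 values were 0.60, -0.40, 0.215 and 0.20 in that order, and again none passed. Mural markers summed to 823 ± 130 CPM in the controls and 2710 ± 1300 CPM in the treated dogs of day 5 (SD, n = 4 each), with MYL9 the most abundant, and 8 of 9 of them had an unadjusted P under 0.05 without being called by edgeR, while DESeq2, which called 0.733% of all genes, called 6 of them higher. All 5 leukocyte markers had higher values in treated dogs on day 5, 2 with an unadjusted P under 0.05, and their sum was 117 ± 33.4 and 202 ± 86.4 CPM. The endothelial sum was 1050 ± 371 and 1500 ± 410 CPM, with 1 of 6 markers at an unadjusted P under 0.05. The part of these markers in the day 5 values was not tested. Of the pathway genes, FGF7 had a log2 fold change of -2.27 on day 5 (edgeR FDR 0.412).

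On day 30 the 4 genes had log2 fold changes of 0.28 for ANGPT1, -0.21 for FGF1, 0.03 for EGLN1 and 0.13 for LEP. Values of the vascular endothelial growth factor receptors stood lower in treated dogs on this day without passing in edgeR, while DESeq2, which called 0.879% of all genes, called 2 of the 5 genes of that list lower, NRP1 and FLT1, and 1 of 6 endothelial markers. NRP1 had 181 ± 32.1 CPM in the controls and 90.2 ± 8.73 CPM in the treated dogs (SD, n = 3 each), or -0.89 on the log2 scale, with an edgeR P of 0.00286 and an FDR of 0.599. FLT1 had 134 ± 48.6 and 51.7 ± 17.6 CPM (log2 fold change -1.26), and for KDR the value was -0.98 on the log2 scale. EPAS1 had 174 ± 6.62 and 75.3 ± 43.1 CPM (log2 fold change -1.09), also at an FDR of 0.599. Of 6 endothelial markers, 4 had an unadjusted P under 0.05 on day 30, all with lower values in treated dogs, and their sum was 1880 ± 176 CPM in the controls and 890 ± 340 CPM in the treated dogs (SD, n = 3 each). Of 8 oocyte markers 7 had higher values in treated dogs, 4 with an unadjusted P under 0.05, and of 3 adipocyte markers DESeq2 called 1 lower. No luteal, mural or leukocyte marker had an unadjusted edgeR P under 0.05. The luteal sum was still lower in all treated dogs, with 2150 ± 143 CPM in the controls and 1680 ± 256 CPM in the treated dogs (SD, n = 3 each). Of 5 luteal markers, 2 had higher values in treated dogs, and DESeq2 gave 1 an unadjusted P under 0.05 without calling it. The part of these markers in the day 30 values was not tested. LEPR rested on 1, 2 and 1 reads in the controls and 15, 3 and 12 in the treated dogs, too few for a firm fold change.

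Over all days together, with day as a term in the fit, treatment gave log2 fold changes of -0.56 for ANGPT1 (95% confidence interval -1.47 to 0.34, edgeR FDR 0.411), -0.18 for FGF1, -0.16 for EGLN1 (FDR 0.419) and 0.08 for LEP. Without the 4 libraries these became -0.06, -0.05, -0.01 and -0.02. The value of ANGPT1 pooled over days therefore rested on these libraries. No gene of 14171 was called by edgeR in this comparison (0%), while 20% had an unadjusted P under 0.05 and DESeq2 called 723.

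The levels of the 4 genes were also set against each other across dogs, as a description of libraries that share groups and depth. FGF1 and LEP had an r of 0.28 over the 26 samples and 0.68 over the 22 without the unusual libraries. FGF1 and EGLN1 had 0.61 and 0.44, and EGLN1 and LEP had 0.01 and 0.41. ANGPT1 had an r of -0.36 and -0.35 to LEP, and of 0.07 and -0.57 to FGF1. Its r of 0.57 to EGLN1 over the 26 samples was -0.16 over the 22, and thus rested on the 4 libraries. Inside the groups, with each group's mean taken off and all 26 samples kept, r was 0.78 for ANGPT1 and EGLN1, 0.28 for ANGPT1 and FGF1, -0.58 for ANGPT1 and LEP and 0.50 for FGF1 and EGLN1. For LEP it was -0.66 to EGLN1 and -0.13 to FGF1. The relations of LEP to EGLN1 and FGF1 thus had no stable sign over the ways of computing them, whereas that to ANGPT1 was negative each time. The within-group r was not computed without the 4 libraries.

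HIF1A followed ANGPT1 most closely among the partner genes. HIF1A was lowest in exactly the 4 libraries that stood apart, with 92.7 CPM in day 20 treated replicate 2, 209 in day 10 treated replicate 1, 294 in day 5 treated replicate 1 and 538 in day 20 treated replicate 3. The other 22 libraries had 629 to 2360 CPM. Its r to ANGPT1 was 0.87 over the 26 samples and 0.62 over the 22, so part of the relation was present without these libraries. Its r to EGLN1 was 0.61 over the 26 and -0.18 over the 22. The summed targets of the hypoxia-inducible factors, with TPI1 the most abundant, had an r to EGLN1 of -0.71 over the 26 and -0.59 over the 22 samples. Their highest sums, 8990 and 6360 CPM, were in replicate 1 of the treated dogs of days 5 and 10, and the other libraries had 1780 to 4640 CPM. SOCS3 had an r to EGLN1 of -0.53 and -0.70, and ANGPT2 an r to ANGPT1 of 0.71 and 0.26. The sum of the leukocyte markers had an r of -0.66 to FGF1, -0.58 to EGLN1, -0.58 to LEP and 0.04 to ANGPT1 over the 26 samples, and of -0.70, -0.71, -0.72 and 0.34 over the 22.

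**Figure D5:**
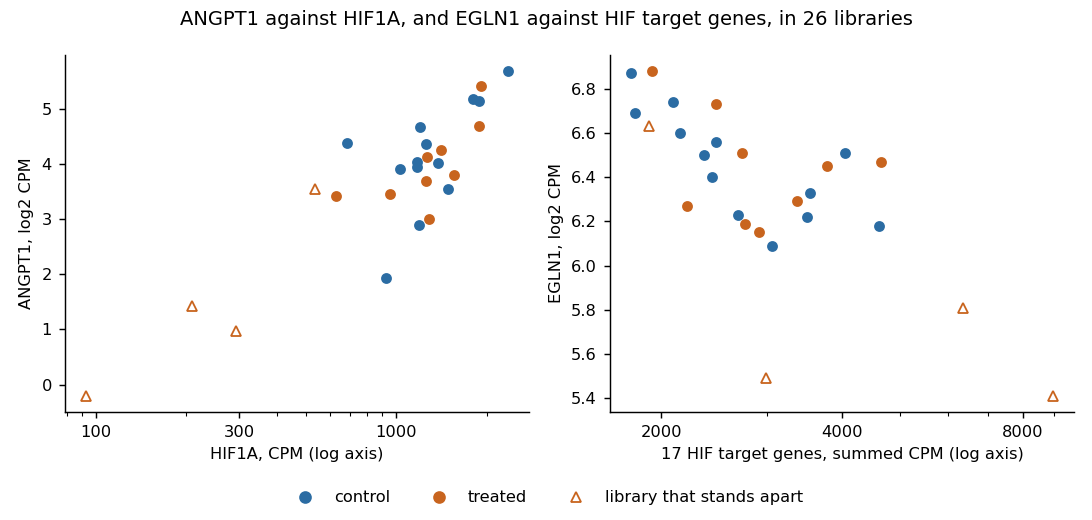
Left, log2 CPM of ANGPT1 (y axis) against HIF1A in CPM (x axis, log scale), and right, log2 CPM of EGLN1 against the summed CPM of 17 targets of the hypoxia-inducible factors (x axis, log scale), in 13 control (blue) and 13 treated dogs (orange), with open triangles for the 4 libraries that stood apart. HIF1A is lowest in these 4 libraries, with 92.7 to 538 CPM, and the highest target sums, 8990 and 6360 CPM, belong to 2 of them.

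Among the 4351 other genes with a symbol that passed the filter, those with the pattern most like each member were listed by Pearson's r of log2 CPM over the 26 samples. For ANGPT1 they were FNDC3A (0.965), MTERF1 (0.945), CACNA2D1 (0.939), ANKIB1 (0.935) and LPGAT1 (0.93), with r of 0.8 to 0.911 over the 22 samples. For EGLN1 they were FAM208B (0.937), NDC1 (0.934), WDR48 (0.932), RRN3 (0.93) and POLR2B (0.929), with 0.807 to 0.839 over the 22. The lists of both genes thus had lower values without the unusual libraries. For FGF1 they were SERINC5 (0.856), FAM129A (0.849), RRAGB (0.847), LRIG3 (0.844) and ENPP6 (0.835), with 0.751 to 0.823 over the 22. For LEP they were DDB2 (0.894), IL1F10 (0.882), CCDC69 (0.873), PAX8 (0.855) and NIPSNAP1 (0.851). Over the 22 samples they had 0.832 to 0.894, with the same 0.894 for DDB2. Of the 5 genes listed for each member, 3 for ANGPT1, 0 for FGF1, 0 for EGLN1 and 2 for LEP were still among the 5 highest when the 4 libraries were left out.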

How the data were processed

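The deposited values were raw read counts, which the authors obtained with featureCounts for Ensembl genes after STAR alignment of single-end reads from poly-A selected TruSeq v2 libraries (CanFam3.1). Versions are not given in the sources used here. The kit does not mark strand, so reads of overlapping genes cannot be told apart, and at few reads per gene fold changes are imprecise. In the RefSeq annotation of another assembly, non-coding genes or pseudogenes overlap ANGPT1 (3), FGF1 (1) and EGLN1 (1).

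Analyses used R 4.3.3, edgeR 4.0.16 and DESeq2 1.42.0. A gene was tested if its mean reached 10 reads in 1 or more of the compared groups. The test was edgeR's quasi-likelihood F-test on counts with TMM factors, fitted to the samples compared, with Benjamini-Hochberg adjustment over all genes tested. Log2 CPM used a prior count of 2. Exact permutation tests compared mean log2 CPM. The edgeR test was also run on simulated counts that held no libraries standing apart, so that check does not cover this feature of the data.

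The 4 genes, the gene lists and the tests were chosen with earlier results of these data known. Named genes were the 4, their direct partners, up to 5 called genes per pathway list by smallest P, or up to 3 with P under 0.05 given as values, and the 5 genes most correlated with each member. Some genes and markers were named in addition after their values were seen. Symbols came from the study's lists of changed genes, so other pathway genes were not analysed here. A gene of the pathway lists is not reported here and was left out of their counts. Alternatives were DESeq2, RLE factors, no filter, a fit of all samples, an FDR under 0.05 alone, the animal number as a block and the omission of each sample, and, added after seeing the data, of the libraries that stood apart. A further 4 samples, which the authors had removed as outliers from sample correlations and scatter plots, were not analysed here. The samples used were thus already selected in part for likeness before the 4 libraries were set apart.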

Additional observations from a re-analysis of the deposited data

Results flagged for a closer look

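FGF1 in the treated dogs of day 5 had 1 sample far from the other 3 of its group. Replicate 4 had 18.6 CPM, whereas the others had 2.57, 4.52 and 2.28 CPM. The gap between replicate 4 and the nearest sample made up 0.863 of the range of the group, above Dixon's critical value for groups of 4. Of 24 sets of 4 to 10 samples checked over the 4 genes, this was 1, and chance gives about 1 in 20. Without this dog the log2 fold change of FGF1 on day 5 was -1.20, against -0.03 with all 8 dogs.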

How the results depend on the processing

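Of 219 values of the 4 genes under alternatives other than the omission of a sample, 204 kept direction and side of the threshold, 2 lost a call and 13 changed sign. Of 416 omissions of a sample, 379 were unchanged in this sense, 2 gained a call, 3 lost it and 32 changed sign. The causes were not tested. LEP kept its call in the control time contrast throughout. EGLN1 lost its call there in the fit of all samples (0.38) and with the animal number as a block (0.36). The numbers did not pair the samples (r of same-numbered deviations -0.39 to 0.506), and day 10 shared too few for a block. Values near 0 changed sign: by the difference of mean log2 CPM, ANGPT1 on day 10 (-0.30), EGLN1 on day 10 (-0.002) and day 30 (-0.095), LEP on day 30 (-0.009) and over all days (-0.10). EGLN1 on day 30 had -0.0422 with DESeq2 and RLE factors, -0.0545 without filter, -0.0782 in the fit of all samples and -0.096 with the block. LEP over all days had -0.145 with the block and -0.0217 without the 4 libraries, and the interaction of FGF1 -0.0176 without them. DESeq2 gave no P for FGF1 on day 5.

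Leaving out 1 sample gave, in the control time contrast, -0.52 to 0.12 for ANGPT1, 0.56 to 0.99 for FGF1 and 0.33 to 0.41 for EGLN1. On day 5 FGF1 had -1.20 to 0.26. On day 10 ANGPT1 had -0.68 to 0.60 and EGLN1 -0.0798 to 0.215. On day 20 ANGPT1 had -2.19 to -1.27, FGF1 -0.22 to 0.77 and EGLN1 -0.48 to 0.0071. On day 30 ANGPT1 had -0.26 to 0.52, EGLN1 -0.15 to 0.11 and LEP -0.0985 to 0.33. LEP over all days had -0.0787 to 0.24, and the interaction of EGLN1 -0.17 to 0.0661.

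Counts of called genes moved more. The control time contrast had 1754 in the fit of all samples and 1806 with the block. The treated time contrast had 1620 with DESeq2, 1705 in the fit of all samples, 383 with the block, 1501 without the 4 libraries, 193 at an FDR under 0.05 alone and 151 to 1989 with 1 sample left out. Day 5 had 100 with DESeq2, 4 with the block and 0 to 1 with 1 sample left out. Day 20 had 1479 with DESeq2 (981 higher, 498 lower), 95 with RLE factors (89 higher, 6 lower), 109 without filter (100 higher, 9 lower), 1559 in the fit of all samples, 10 with the block, 266 without both unusual libraries, 1 at an FDR under 0.05 alone and 0 to 1016 with 1 sample left out. Day 30 had 116 with DESeq2. All days had 723 with DESeq2, 13 with the block and 0 to 1609 with 1 sample left out, the last without day 30 control replicate 2. The interaction had 192 with DESeq2 and 0 to 52, the last without day 5 treated replicate 1.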
